A study of Mus musculus with 8 samples.

Results

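A set of 35 genes of fibroblasts and smooth muscle were followed in neutrophil preparations of the mouse lung, with and without pneumonia. They were chosen by name, as genes that build or organise the connective tissue matrix, mark fibroblasts or mural cells, or form the contractile apparatus of smooth muscle. Of the 35 genes, 34 had a row in the table of 24625 rows, each of them 1 row, and Fbln1 had no matched row. Wild type mice, given in the labels as 6 to 12 weeks old, received either phosphate-buffered saline (PBS) or the pneumonia-causing bacterium Streptococcus pneumoniae (SP). The volume, instilled intratracheally on the left side, was 2.3 µl for each g of the mouse. The methods name C57BL/6J colonies founded from purchased adult females, mice matched for age and sex, and a narrower age range than the labels do. Lungs were taken 24 h later and digested, and cells that carried Ly6G, a surface protein of mouse neutrophils, were pulled out with magnetic beads. RNA of 4 PBS and 4 SP preparations was measured, each on its own Affymetrix Mouse Gene 1.1 ST array. All values below are log2 signals, and a difference of 1 log2 unit is a 2-fold difference.

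The matrix of the lung is made largely by fibroblasts. Elastic fibres consist of a core of elastin, which lysyl oxidases cross-link, on a scaffold of fibrillin microfibrils, and they give the alveoli and vessels their recoil. Small leucine-rich proteoglycans bind collagen and set how its fibrils assemble, while matricellular proteins such as periostin and SPARC modify how cells attach to the matrix. Smooth muscle of airways and vessels contracts through its own actin and myosin isoforms, and pericytes and smooth muscle share receptors for platelet-derived growth factor (PDGF). Neutrophils are not known as makers of elastin or of smooth muscle myosin. In these preparations, fewer cells of a type and less RNA per cell cannot be told apart. The methods report a high neutrophil purity of the pneumonia preparations, judged on stained cells. The few other cells there mostly resembled alveolar macrophages and rarely eosinophils. They also state that Ly6G mRNA was high in all samples. The purity of the PBS preparations was not given in the sources used here.

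Markers of neutrophils gave strong signal in both groups, and so did those of some other lung cells. S100a8, a calcium-binding protein of neutrophil cytosol, averaged 13.20 ± 0.057 in PBS and 13.01 ± 0.22 in SP (SD, n = 4 each), and Retnlg, a secreted protein of neutrophils, 13.36 ± 0.027 and 12.88 ± 0.35. Of 9 neutrophil markers with a row, 3 were lower in SP by limma and 6 were not called (22.6% and 55.9% of all rows). Their median difference was -0.45. None was called after centring each array on its median, and 7 were lower after another quantile normalization (22.0% of all rows). Without SP replicate 3, 8 of the 9 were lower (22.3% of all rows). Ly6g itself had no matched row. The log2 of the summed signal of the 9 markers ran from 15.98 to 16.17 in PBS. It was 15.52, 15.38, 16.18 and 15.68 on SP replicates 1 to 4, so only SP replicate 3 was not below the PBS arrays. The same sum for 8 alveolar type 2 markers ran from 15.16 to 15.60 in PBS and from 13.60 to 14.82 in SP. Array medians were lower in SP (5.78 to 5.91) than in PBS (6.06 to 6.20), by a mean of 0.28 log2 units, although the median difference over rows was 0.10. Centring the arrays therefore moved every SP difference up by 0.28 log2 units. To show how low a level can be read, 1080 rows of olfactory receptors, which lung cells hardly use, had a median of 4.79 and a 95th percentile of 5.56. A row below the latter is called dim here.

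Single preparations stood apart on these genes, and this precedes every result. SP replicate 4 was the highest SP array for 34 of 34 genes, against 23.7% of all rows. It lay at least 1 log2 unit above every other SP array for 15 of the 34, against 0.577% of all rows. SP replicate 3 was the lowest SP array for 25 of 34 (33.9% of rows), and PBS replicate 1 was the highest PBS array for 27 of 34 (17.3% of rows). The median distance of SP replicate 4 from the mean of the other SP arrays was 1.30 over the 34 genes and -0.037 over all rows, and that of SP replicate 3 was -1.05 and 0.032. SP replicate 4 also stood apart on markers of some other cells. SP replicate 4 exceeded the other SP arrays by a median of 0.59 for endothelial, 0.73 for mesothelial, 0.88 for alveolar type 2 and 0.94 for monocyte and interstitial macrophage markers. The median was smaller for ciliated (0.21), pericyte (0.18) and cardiac muscle markers (0.053). It was negative for neutrophil (-0.075), airway cartilage (-0.093) and platelet markers (-0.14). The part of these markers in the results on the 34 genes was not tested.

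**Figure D1:**
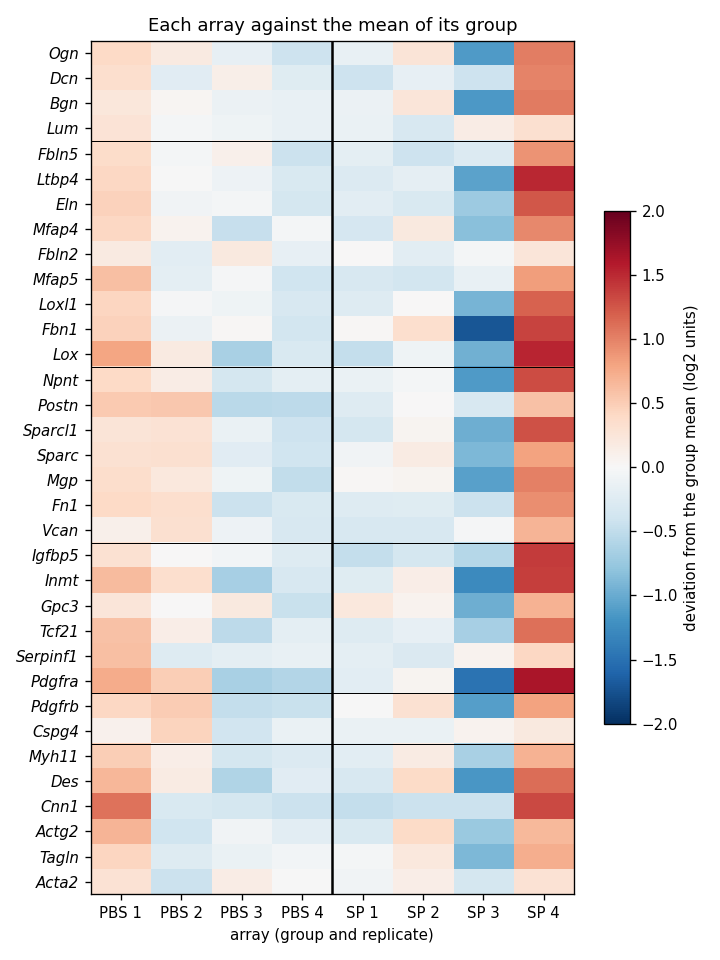
Each cell is the log2 signal of 1 gene on 1 array minus the mean of that array's group, in log2 units, with genes in rows (grouped by role) and the 4 PBS and 4 SP arrays in columns. SP replicate 4 is above its group mean for 34 of 34 genes, SP replicate 3 holds the lowest SP value for 25 of them, and PBS replicate 1 holds the highest PBS value for 27.

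The matrix and fibroblast genes were mostly lower in SP. By limma with Benjamini-Hochberg adjustment over all rows, 18 of the 34 genes were lower, 1 (Vcan) was higher and 15 were not called. Over all 24625 rows, 22.6% were called lower, 21.5% higher and 55.9% not. These shares are the background for the lists below too. At least 2-fold falls were called for 14 genes (11.3% of all rows) and an at least 2-fold rise for 1 (6.37%). The SP arrays lay below all PBS arrays for 14 genes (21.8% of rows) and above them for 1 (27.2%). The median difference over the 34 genes was -0.79, against 0.10 over all rows. Without SP replicate 4, 22 genes were lower and 1 higher (22.8% and 21.5% of rows). Without SP replicate 3, 16 were lower and 2 higher (22.3% and 21.5%), and without both, 20 were lower and 1 higher (21.5% and 20.0%). The methods' t-test, a plain comparison of the group means for each row, called 12 lower and 1 higher (19.8% and 21.8%). Without SP replicate 1, 11 were lower and 1 higher (19.1% and 15.9%). After centring, 15 were lower and 5 higher (16.4% and 57.7%), the latter being Vcan, Lum, Lox, Fn1 and Acta2, and after another quantile normalization 16 were lower and 2 higher, Vcan and Lox (22.0% and 19.6%).

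Spread within the SP group was wide. The SD was larger in SP than in PBS for 29 of 34 genes, against 65.7% of all rows. The median SD was 0.35 in PBS and 0.77 in SP over these genes, and 0.13 and 0.18 over all rows. SP replicate 3 was below the lowest PBS array for 28 of the 34 genes, SP replicate 1 for 25, SP replicate 2 for 23 and SP replicate 4 for 14. SP replicate 4 lay above the highest PBS array for 10 genes and inside the PBS range for 10.

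**Figure D2:**
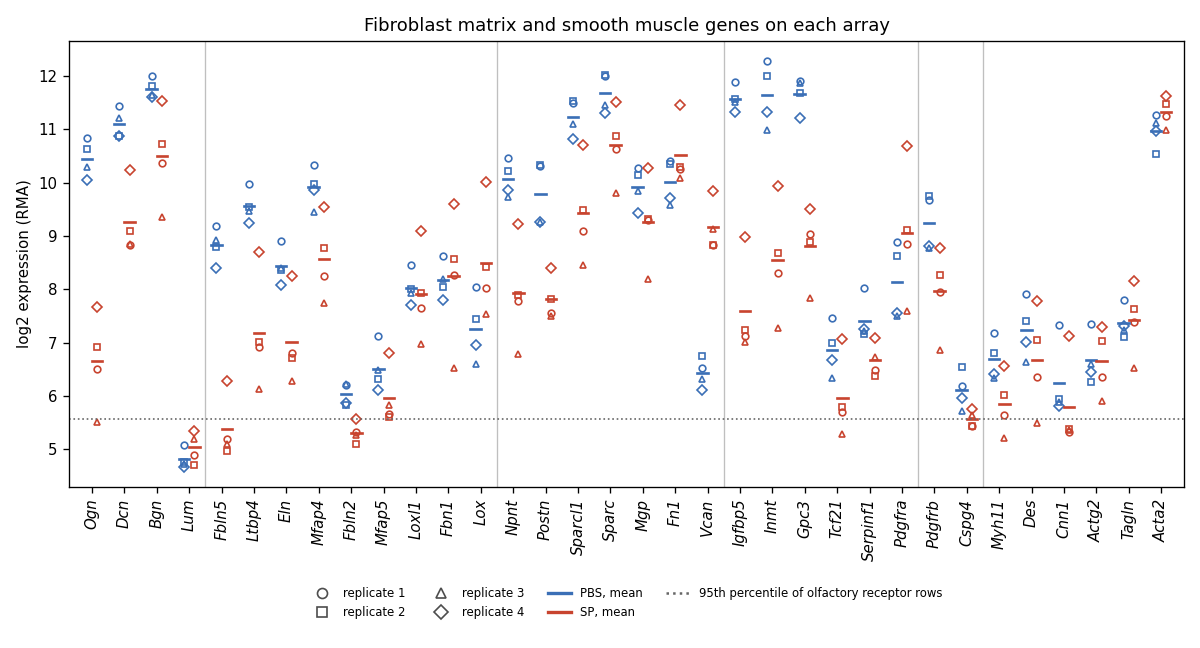
Log2 signal of the 34 genes on each of the 8 arrays, 1 column per gene grouped by role, with PBS (blue) and SP (red) arrays as points shaped by replicate, group means as short lines and the 95th percentile of olfactory receptor rows (5.56) as a dotted line. Ogn, Fbln5 and Igfbp5 show the SP arrays well below the PBS arrays, Vcan shows them above, and Acta2 and Fn1 show overlapping groups.

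Small leucine-rich proteoglycans came first. Ogn (osteoglycin), which takes part in collagen fibril growth, read 10.85, 10.63, 10.29 and 10.04 on PBS replicates 1 to 4 and 6.50, 6.92, 5.51 and 7.67 on SP replicates 1 to 4. The highest SP array was more than 2 log2 units under the lowest PBS array. The fall was 13.9-fold (difference -3.80, SE 0.42, limma adjusted p = 0.0002). Dcn (decorin), which coats collagen fibrils and binds TGF-beta, read 11.44, 10.88, 11.22 and 10.87 in PBS and 8.84, 9.10, 8.85 and 10.24 in SP. SP replicate 4 sat more than 1 log2 unit above the other SP arrays, yet below all PBS arrays. Dcn was 3.60-fold lower (difference -1.85, SE 0.31, limma adjusted p = 0.00194). Bgn (biglycan), its closest relative, read 11.99, 11.81, 11.65 and 11.61 in PBS and 10.38, 10.74, 9.35 and 11.53 in SP, so that SP replicate 4 nearly reached the PBS range. Its fall of 2.41-fold (difference -1.27, SE 0.40, limma adjusted p = 0.0318) lost the call without any 1 of PBS replicates 1 to 4 or SP replicates 1 and 2 (adjusted p = 0.0504 to 0.0798). Lum (lumican) was dim in both groups, at 4.81 ± 0.18 in PBS and 5.03 ± 0.29 in SP (difference 0.22, limma adjusted p = 0.260).

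Of 8 other small leucine-rich proteoglycans, 3 were lower, 1 was higher and 4 were not called (22.6%, 21.5% and 55.9% of all rows). Their median was -0.72. Podn (podocan) averaged 9.38 ± 0.36 in PBS and 5.72 ± 0.30 in SP, a difference of -3.65 (limma adjusted p = 1.01e-05). Prelp, which anchors basement membranes, averaged 10.58 ± 0.39 and 9.13 ± 1.14, a difference of -1.45 that narrowly missed the threshold (limma adjusted p = 0.0501) and passed it without SP replicate 4 (difference -1.94, adjusted p = 0.00422).

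Elastic fibre genes divided. Of the 9 with a row, 5 were lower and 4 were not called, and their median was -0.72. Fbln5 (fibulin 5), which tethers elastin to microfibrils and to cells, read 9.20, 8.79, 8.93 and 8.41 in PBS and 5.18, 4.97, 5.11 and 6.28 in SP. SP replicates 1 to 3 were dim and SP replicate 4 was not. The fall was 10.9-fold (difference -3.45, SE 0.30, limma adjusted p = 6.13e-05). Ltbp4, which holds latent TGF-beta in the matrix and guides Fbln5 onto microfibrils, read 9.98, 9.55, 9.47 and 9.25 in PBS and 6.92, 7.01, 6.12 and 8.70 in SP. Groups did not overlap, and SP replicate 4 was closer to the PBS arrays than to the other SP arrays. Ltbp4 was 5.18-fold lower (difference -2.37, SE 0.48, limma adjusted p = 0.00479).

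Eln, the gene of elastin itself, read 8.90, 8.36, 8.40 and 8.08 in PBS and 6.80, 6.71, 6.29 and 8.25 in SP. SP replicate 4 exceeded PBS replicate 4, so the groups overlapped. The 2.68-fold fall (difference -1.42, SE 0.40, limma adjusted p = 0.0202) lost its call without PBS replicate 1, SP replicate 1 or SP replicate 2 (adjusted p = 0.0582, 0.0543 and 0.0516). Mfap4, a microfibril-associated protein that binds elastin, read 10.33, 9.98, 9.46 and 9.87 in PBS and 8.25, 8.77, 7.74 and 9.54 in SP. Here SP replicate 4 exceeded PBS replicate 3. Mfap4 was 2.53-fold lower (difference -1.34, SE 0.37, limma adjusted p = 0.0188), and the call was lost without PBS replicate 1 or SP replicate 1 (adjusted p = 0.0547 and 0.0536). Fbln2, another fibulin, went from 6.03 ± 0.21 to a dim 5.31 ± 0.19, a difference of -0.72 (limma adjusted p = 0.00327) without overlap.

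The fibrillin and the cross-linking enzymes gave other values. Fbn1 (fibrillin 1), the main microfibril protein, read 8.63, 8.05, 8.20 and 7.80 in PBS and 8.27, 8.57, 6.53 and 9.60 in SP. The SP arrays spanned more than 3 log2 units on both sides of the PBS range, and the difference was 0.07 (limma adjusted p = 0.919). Lox (lysyl oxidase) read 8.04, 7.44, 6.61 and 6.95 in PBS and 8.02, 8.41, 7.54 and 10.02 in SP. SP replicate 4 was the highest array and 1 of the other SP arrays exceeded all PBS arrays, but the difference of 1.24 (SE 0.53) was not called (limma adjusted p = 0.0869). Without SP replicate 3 it was (difference 1.56, adjusted p = 0.0475). Loxl1, a lysyl oxidase needed for elastin renewal, averaged 8.02 ± 0.31 in PBS and 7.91 ± 0.88 in SP (limma adjusted p = 0.821). Mfap5, a microfibril glycoprotein, averaged 6.51 ± 0.44 and 5.97 ± 0.56 (difference -0.54, limma adjusted p = 0.173), and it was called lower without SP replicate 4 (difference -0.82, adjusted p = 0.0241).

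Beyond these, 4 of 12 other elastic fibre genes were lower, none was higher and 8 were not called (22.6%, 21.5% and 55.9% of all rows). Their median was -0.39. Efemp1 (fibulin 3) fell from 11.52 ± 0.22 to 7.73 ± 1.04, a difference of -3.79 (limma adjusted p = 0.000318). Emilin2, a glycoprotein of elastic tissue, averaged 11.48 ± 0.43 in PBS and 11.28 ± 0.066 in SP (difference -0.20, limma adjusted p = 0.392). The other 3 lower genes, named after their values were seen, were Mfap2 (difference -2.60), Ltbp3 (-2.28) and Ltbp2 (-1.52).

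**Figure D3:**
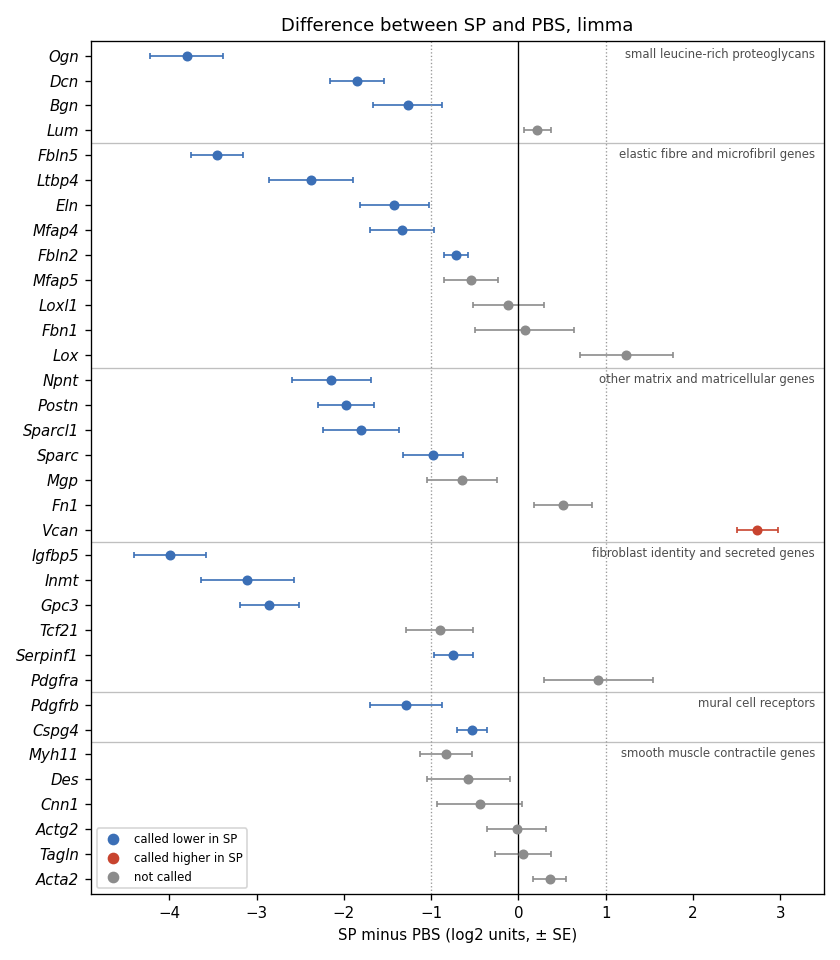
SP minus PBS difference of each of the 34 genes in log2 units, with its limma standard error as bars and genes ordered within their role. The 14 genes called at least 2-fold lower run from -3.99 (Igfbp5) to -1.27 (Bgn), and Vcan stands alone on the other side at 2.74.

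Matricellular and other matrix genes held the 1 gene that rose. Vcan (versican), a large proteoglycan that binds hyaluronan and that monocytes also make, read 6.52, 6.74, 6.33 and 6.10 in PBS and 8.84, 8.84, 9.14 and 9.84 in SP. Every SP array was more than 2 log2 units above every PBS array. The rise was 6.68-fold (difference 2.74, SE 0.24, limma adjusted p = 6.52e-05). Markers of monocytes and interstitial macrophages had a median difference of 0.43, with 3 of 8 higher and 5 not called (21.5% and 55.9% of all rows). None of these markers was dim. Their summed level was 11.22 to 12.14 in PBS and 11.63 to 12.73 in SP. SP replicate 4 was the highest SP array for this sum and for Vcan. SP replicate 3 was the lowest SP array for the sum and had the next to highest Vcan level in SP. Csf1r, the receptor for macrophage growth factor, averaged 10.61 ± 0.54 and 11.34 ± 0.28 (difference 0.73, limma adjusted p = 0.0547). C1qb, a complement subunit of macrophages, averaged 9.59 ± 0.51 and 9.72 ± 0.89 (difference 0.13, limma adjusted p = 0.815). The part of such cells in the Vcan result was not tested.

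In this group, 4 of 7 genes were lower, with a median of -0.98 over the group. Npnt (nephronectin), an integrin ligand of basement membranes, read 10.47, 10.22, 9.72 and 9.87 in PBS and 7.79, 7.89, 6.79 and 9.23 in SP, without overlap. It was 4.42-fold lower (difference -2.14, SE 0.45, limma adjusted p = 0.00572). Postn (periostin), which promotes collagen cross-linking, read 10.31, 10.34, 9.26 and 9.27 in PBS and 7.56, 7.82, 7.49 and 8.40 in SP. The PBS arrays themselves fell into pairs about 1 log2 unit apart, with replicates 1 and 2 higher. Postn was 3.93-fold lower (difference -1.97, SE 0.32, limma adjusted p = 0.00154). Sparcl1, a relative of Sparc, read 11.50, 11.54, 11.11 and 10.82 in PBS and 9.09, 9.49, 8.46 and 10.71 in SP, where SP replicate 4 came close to PBS replicate 4. Its fall was 3.49-fold (difference -1.80, SE 0.43, limma adjusted p = 0.0107).

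Sparc, a collagen-binding protein, averaged 11.69 ± 0.37 in PBS and 10.71 ± 0.71 in SP. Its difference of -0.98 (SE 0.34, limma adjusted p = 0.0468) lay just inside the threshold, the groups overlapped, and leaving out any 1 array except SP replicate 4 lost the call (adjusted p = 0.0535 to 0.114). Fn1 (fibronectin), an adhesive glycoprotein that macrophages also make, averaged 10.01 ± 0.43 and 10.52 ± 0.63 (difference 0.51, limma adjusted p = 0.216). Mgp (matrix Gla protein), an inhibitor of calcification, averaged 9.92 ± 0.38 and 9.27 ± 0.86 (difference -0.65, limma adjusted p = 0.204), and it was called lower without SP replicate 4 (difference -0.98, adjusted p = 0.0426).

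Genes that mark fibroblasts or are secreted by them included the largest fall. Igfbp5, which binds insulin-like growth factors, read 11.88, 11.58, 11.52 and 11.32 in PBS and 7.12, 7.24, 7.01 and 8.99 in SP. SP replicates 1 to 3 lay close together, while SP replicate 4 was well above them. The fall was 15.9-fold (difference -3.99, SE 0.41, limma adjusted p = 0.000152). Inmt, a methyltransferase abundant in lung fibroblasts, read 12.29, 11.99, 10.99 and 11.33 in PBS and 8.30, 8.68, 7.27 and 9.93 in SP. It was 8.60-fold lower (difference -3.10, SE 0.53, limma adjusted p = 0.00212), without overlap. Gpc3 (glypican 3), a heparan sulphate proteoglycan of the cell surface, read 11.91, 11.68, 11.86 and 11.22 in PBS and 9.03, 8.88, 7.84 and 9.52 in SP, and it was 7.22-fold lower (difference -2.85, SE 0.33, limma adjusted p = 0.00028). The 4 SP arrays of Gpc3 were all more than 1 log2 unit below the lowest PBS array.

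Serpinf1 (pigment epithelium-derived factor) went from 7.41 ± 0.41 to 6.67 ± 0.32, a difference of -0.74 (SE 0.23, limma adjusted p = 0.0288). The call was lost without SP replicate 1 or 2 (adjusted p = 0.0750 and 0.0701), after centring (difference -0.46, adjusted p = 0.0692) and after another quantile normalization (-0.31, adjusted p = 0.339). Tcf21, a transcription factor of lung mesenchyme, averaged 6.87 ± 0.48 and 5.96 ± 0.77 (difference -0.90, limma adjusted p = 0.0872). It was called lower without SP replicate 4 (difference -1.27, adjusted p = 0.00748). Pdgfra, the PDGF receptor alpha and a defining marker of lung fibroblasts, read 8.89, 8.62, 7.49 and 7.55 in PBS and 8.84, 9.10, 7.59 and 10.69 in SP. Both groups were spread, SP replicate 3 sat with the low PBS arrays and SP replicate 4 above all others, and the difference of 0.92 (SE 0.62) was not called (limma adjusted p = 0.241).

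The mural cell genes were both lower. Pdgfrb, the PDGF receptor beta of pericytes and smooth muscle, read 9.67, 9.75, 8.78 and 8.81 in PBS and 7.96, 8.26, 6.86 and 8.77 in SP. SP replicate 4 nearly reached PBS replicates 3 and 4. The 2.45-fold fall (difference -1.29, SE 0.41, limma adjusted p = 0.0350) lost its call without PBS replicate 1 or 2 or SP replicate 1 or 2 (adjusted p = 0.0512 to 0.0917). Cspg4 (NG2), a proteoglycan of pericytes, averaged 6.10 ± 0.35 in PBS and 5.57 ± 0.16 in SP, near the dim level, a difference of -0.53 (SE 0.17, limma adjusted p = 0.0369). It lost its call after either other scaling (adjusted p = 0.164 and 0.103) and without any 1 of PBS replicates 1, 2 and 4 or SP replicates 1, 2 and 3 (adjusted p = 0.0528 to 0.0902). Of 7 pericyte markers, 4 were lower, none was higher and 3 were not called (22.6%, 21.5% and 55.9% of all rows). Their median was -0.54. Of the 7, 4 were dim by their mean over all 8 arrays. Mcam, an adhesion molecule that endothelium also carries, averaged 10.38 ± 0.21 in PBS and 9.84 ± 0.21 in SP, and Notch3, a receptor of mural cells, 7.82 ± 0.52 and 6.13 ± 0.27.

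The 6 contractile genes of smooth muscle were not called in either direction by limma, nor by the methods' t-test, and 1 of them, Myh11, had an unadjusted p under 0.05. Their median was -0.23, and 0.051 after centring. Acta2 (smooth muscle alpha actin) read 11.26, 10.55, 11.12 and 10.97 in PBS and 11.26, 11.47, 10.98 and 11.63 in SP. The groups overlapped, and SP replicates 2 and 4 were above all PBS arrays. The difference was 0.36 (SE 0.19, limma adjusted p = 0.142), and it was called higher after centring (difference 0.64, adjusted p = 0.0113). Myh11, the smooth muscle myosin heavy chain, read 7.18, 6.81, 6.33 and 6.42 in PBS and 5.64, 6.02, 5.21 and 6.56 in SP. Its difference of -0.83 (SE 0.30) missed the threshold (limma adjusted p = 0.0537) and passed it without SP replicate 4 (difference -1.06, adjusted p = 0.0147).

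Tagln (transgelin), an actin-binding protein, averaged 7.37 ± 0.30 and 7.42 ± 0.68 (difference 0.06, limma adjusted p = 0.888). Cnn1 (calponin 1), which inhibits myosin ATPase, read 7.32, 5.94, 5.88 and 5.80 in PBS and 5.32, 5.37, 5.37 and 7.12 in SP. In each group a single array, PBS replicate 1 and SP replicate 4, was more than 1 log2 unit above the other arrays. The difference was -0.44 (limma adjusted p = 0.457). Des (desmin), an intermediate filament of muscle, averaged 7.24 ± 0.54 and 6.67 ± 0.97 (difference -0.57, limma adjusted p = 0.329), and Actg2, the gamma actin of enteric smooth muscle, 6.67 ± 0.47 and 6.65 ± 0.63 (difference -0.02, limma adjusted p = 0.966). Muscle actins have nearly the same coding sequence, so the signals of Acta2 and Actg2 are uncertain as to which actin was measured.

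A wider list of 17 smooth muscle genes, many of which other cells use too, gave 11 lower, 1 higher and 5 not called, with a median of -0.72. Over all rows, 22.6% were lower and 21.5% higher. After centring, 8 of the 17 were lower and 3 higher (16.4% and 57.7% of all rows). Actn1 (alpha actinin 1), which bundles actin in most cells, averaged 11.99 ± 0.16 in PBS and 11.43 ± 0.12 in SP, a difference of -0.56 (limma adjusted p = 0.00317) that lost its call after centring (-0.28, adjusted p = 0.0827). Flna (filamin A), another general actin cross-linker, averaged 12.20 ± 0.13 and 11.73 ± 0.35, a difference of -0.48 (limma adjusted p = 0.0480) that lost its call without any 1 array except SP replicate 3 (adjusted p = 0.0641 to 0.117). The 1 higher gene, Pln (phospholamban, difference 0.39), was named after its value was seen.

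Smooth muscle genes are known to share the CArG box, the site of serum response factor, which Srf encodes. The letters CC, a core of 6 bases with at most 1 G or C, and GG were searched in the 250 bases before the start of each gene, from RefSeq promoters of GRCm38.p6. The pattern is its own reverse complement, so 1 search covered both strands. It was present in 9.78% of 27025 genes, and its strict form with only A and T in the core in 1.62%. Of the 35 genes, 21 had a promoter in the table, and 3 (14.3%) held the pattern, namely Acta2, Fbln2 and Serpinf1. Of the 6 contractile genes, 3 had a promoter and 1, Acta2, held it. Of the 17 other smooth muscle genes, 16 had a promoter and 4 (25.0%) held it, each with a strict box. The windows of Acta2, the contractile gene with the pattern, and of these 4 genes are shown for comparison, with the box in capitals and 10 bases on each side:
Acta2, farther box: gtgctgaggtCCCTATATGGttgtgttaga
Acta2, nearer box: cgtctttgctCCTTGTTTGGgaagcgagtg
Srf, farther box: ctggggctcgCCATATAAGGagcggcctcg
Srf, nearer box: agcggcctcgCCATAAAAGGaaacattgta
Vcl: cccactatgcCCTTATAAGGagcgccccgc
Cnn2: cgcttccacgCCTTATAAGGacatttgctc
Myl9, strict box: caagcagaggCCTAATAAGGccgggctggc

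The Acta2 windows lie on the minus strand at chr19:34255438-34255467 and chr19:34255388-34255417, with boxes 84 and 34 bases before the start. Both are inside the span annotated for the gene, which ends at position 34255585 of the same build. Those of Srf are at chr17:46556225-46556254 and chr17:46556205-46556234 (minus strand, 82 and 62 bases), Vcl at chr14:20929161-20929190 (plus, 227), Cnn2 at chr10:79988534-79988563 (plus, 56) and Myl9 at chr2:156775293-156775322 (plus, 161). Each Acta2 box has 1 G or C in its core, and the boxes shown for the others have none. A match describes these letters and does not show that the factor bound there.

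Expression of the genes with the pattern varied. Fbln2 and Serpinf1, whose windows are not shown, were called lower, as given above. Srf averaged 9.50 ± 0.20 in PBS and 8.78 ± 0.23 in SP (difference -0.72, limma adjusted p = 0.00428). Vcl (vinculin), which links actin to adhesion sites, averaged 10.84 ± 0.055 and 10.16 ± 0.15 (difference -0.68, limma adjusted p = 0.00054). Cnn2 (calponin 2), which leukocytes also make, averaged 11.92 ± 0.18 and 10.87 ± 0.42 (difference -1.05, limma adjusted p = 0.00378). These 3 falls were without overlap between groups, as were falls in 21.8% of all rows. Myl9, the regulatory light chain of smooth muscle myosin, averaged 8.09 ± 0.45 and 7.09 ± 0.71 (difference -0.998, limma adjusted p = 0.0520), and Acta2, as given above, was not called.

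Related members were then set against each other on the same array, since the difference between genes on 1 array is not moved by adding a constant to that array. The 6 pairs of relatives were picked after their values were seen, so the changes are descriptions without a test. Another quantile normalization, which does more than add a constant, is given where it moved a value most.

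Pdgfra minus Pdgfrb went from -1.12 ± 0.23 in PBS to 1.09 ± 0.56 in SP, a change of 2.21 without overlap between groups. Lox minus Loxl1 went from -0.76 ± 0.40 to 0.59 ± 0.24, a change of 1.35, and Fbln2 minus Fbln5 from -2.80 ± 0.22 to -0.071 ± 0.43, a change of 2.73. Sparc minus Sparcl1 went from 0.45 ± 0.066 to 1.27 ± 0.32, a change of 0.82. The last 3 pairs did not overlap between groups either. Fbln2 was dim on every SP array and Fbln5 on SP replicates 1 to 3, which limits how far their difference can be read. Dcn minus Bgn (change -0.58) and Acta2 minus Actg2 (change 0.38) overlapped between groups, and the latter turned to -0.16 after another quantile normalization.

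**Figure D4:**
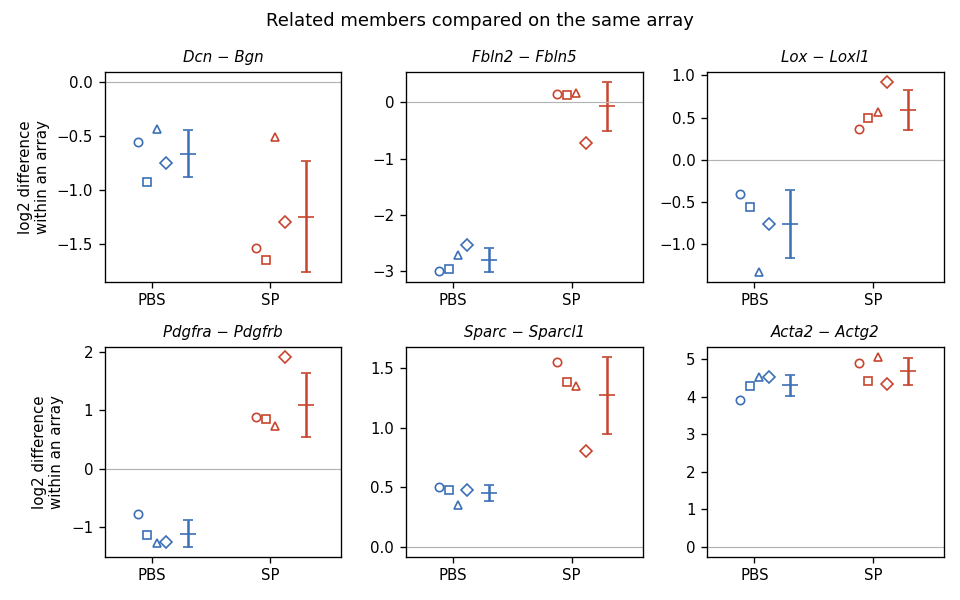
Within-array difference between the log2 signals of 6 pairs of related genes, with each array as a point and the group mean ± SD beside it. PBS and SP arrays do not overlap for Pdgfra minus Pdgfrb, Lox minus Loxl1, Fbln2 minus Fbln5 and Sparc minus Sparcl1, and they overlap for Dcn minus Bgn and Acta2 minus Actg2.

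Ligands that act on these genes' products or drive their expression were taken from lists of related genes. PDGF ligands bind the receptors that Pdgfra and Pdgfrb encode. Of the 4, 3 were lower and 1 was not called (22.6% and 55.9% of all rows), with a median of -0.997. Pdgfa averaged 9.06 ± 0.30 in PBS and 8.02 ± 0.33 in SP (difference -1.04, limma adjusted p = 0.00350), and Pdgfb 8.91 ± 0.51 and 8.36 ± 0.58 (difference -0.56, limma adjusted p = 0.190). Pdgfc (difference -0.95) and Pdgfd (-1.88), named after their values were seen, were lower too, with adjusted p = 0.000398 and 0.000566.

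The TGF-beta pathway, a known inducer of matrix and smooth muscle genes, held genes called in both directions. Of 21 genes, 6 were lower, 7 were higher and 8 were not called (22.6%, 21.5% and 55.9% of all rows). Their median was 0.26. After centring, 11 were higher and 6 lower (57.7% and 16.4% of all rows). After another quantile normalization, 8 were higher and 7 lower (19.6% and 22.0% of all rows). Thbs1 (thrombospondin 1), which activates latent TGF-beta, averaged 12.66 ± 0.38 and 13.12 ± 0.13 (difference 0.47, limma adjusted p = 0.0624), and Smad4, the shared partner of the signalling Smads, 11.02 ± 0.12 and 10.90 ± 0.043 (difference -0.12, limma adjusted p = 0.222). The 3 ligands, named after their values were seen, differed in direction. Tgfb1, the isoform of leukocytes and platelets, rose from 9.75 ± 0.18 to 11.18 ± 0.14 (difference 1.42, limma adjusted p = 3.87e-05). Tgfb2 fell from 7.64 ± 0.18 to 5.62 ± 0.47 (difference -2.03, limma adjusted p = 0.0002) and Tgfb3 from 8.76 ± 0.20 to 6.22 ± 0.62 (difference -2.54, limma adjusted p = 0.000212). SP replicate 4 was the lowest SP array for Tgfb1 and the highest for Tgfb2 and Tgfb3.

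Other fibroblast markers fell in part. Of 17, 8 were lower, none was higher and 9 were not called (22.6%, 21.5% and 55.9% of all rows). Their median was -0.65, and 5 of the 17 were dim by their mean over all 8 arrays. Foxf1, a transcription factor of lung mesenchyme and endothelium, averaged 11.57 ± 0.48 in PBS and 10.23 ± 0.52 in SP (difference -1.33, limma adjusted p = 0.00874). Pi16, a marker of adventitial fibroblasts, averaged 9.94 ± 0.67 and 8.48 ± 0.40 (difference -1.46, limma adjusted p = 0.00893), and here SP replicate 3, not 4, was the highest SP array.

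Markers of other lung cells moved with these genes. The log2 summed level of the 34 genes was 14.74 to 15.41 in PBS and 13.12 to 14.76 in SP. Mesothelial markers, of the cells that line the lung surface, were all lower (6 of 6, median -3.04), with sums of 12.55 to 13.08 in PBS and 8.26 to 10.11 in SP. Upk3b, a uroplakin of mesothelium, went from 11.35 ± 0.24 to 7.04 ± 0.84 and Msln (mesothelin) from 10.36 ± 0.24 to 7.77 ± 0.78, and for both SP replicate 4 was the highest and SP replicate 3 the lowest SP array. Endothelial markers were lower for 10 of 12 and higher for none (median -1.23), with sums of 14.04 to 14.98 and 12.75 to 13.66. Cdh5, the cadherin of endothelial junctions, went from 11.91 ± 0.41 to 10.92 ± 0.23 and Calcrl, a receptor for adrenomedullin, from 12.30 ± 0.43 to 10.66 ± 0.49. The PBS arrays differed here: replicate 2 was the highest PBS array for the endothelial sum and the lowest for the mesothelial sum, and replicate 1 was the highest for the 34 genes.

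Epithelial markers were lower too, for 4 of 5 genes of alveolar type 1 cells (median -1.75), 7 of 8 of type 2 cells (-1.15) and 5 of 5 of ciliated cells (-2.80). Alveolar macrophage markers were lower for 4 of 6 and higher for 1 (-1.37), and platelet markers lower for 2 of 6 and higher for 1 (-0.30). Over all rows, 22.6% were lower and 21.5% higher. Cartilage markers were dim by their mean over all arrays for 8 of 8 genes, with sums of 7.24 to 7.35 in PBS and 7.42 to 7.59 in SP. Cardiac markers were dim for 4 of 6. How far any of these cells account for values of the 34 genes was not tested.

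**Figure D5:**
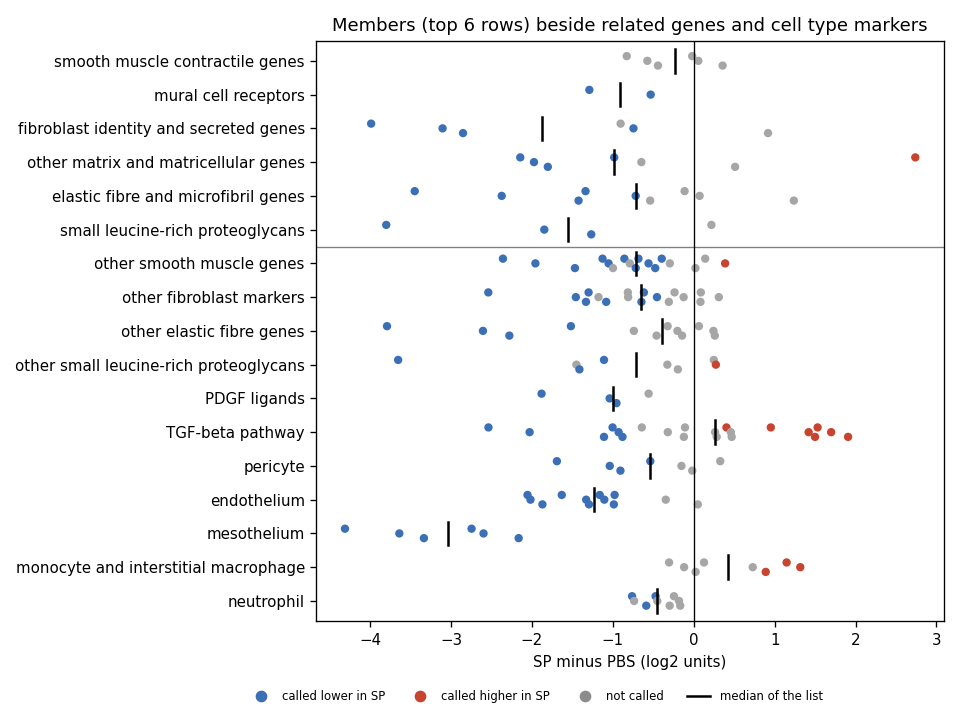
SP minus PBS difference in log2 units for each gene of the 6 role groups of the 34 genes (above the line) and of related genes and cell type markers (below it), coloured by the limma call, with the median of each list as a black bar. Medians run from -3.04 (mesothelium) to 0.43 (monocyte and interstitial macrophage), and no contractile gene of smooth muscle is called.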

How the data were processed

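RNA was measured on Affymetrix Mouse Gene 1.1 ST arrays, 4 PBS and 4 SP, grouped and numbered by sample title. Per the study's methods and the submitters' processing notes, which name Affymetrix Expression Console, RMA and Partek, the authors deposited log2 values from robust multi-array averaging over custom probe mappings. This comprised adjustment for GC content, quantile normalization and a median polish. Quantile normalization makes values relative within an array, so a change in total RNA cannot be read from them. The paper describes each sample as coming from a mouse, so the spread between samples includes that between mice. The number of arrays limits the precision. The microRNA arrays were not analysed here.

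All 8 columns were used. Symbols came from RefSeq (GRCm38.p6) by unversioned accession, for 19915 of 24625 rows (80.9%). Rows were compared with limma (version 3.58.1, R 4.3.3) by lmFit and eBayes. No covariates were used, tests were two-sided, p-values were adjusted by Benjamini-Hochberg over every row, and rows were called at an adjusted p of at most 0.05. Summaries and figures used Python 3.11.15 and matplotlib 3.10.9. The fits were tested first on simulated data with independent noise in each row. That test held no deviation shared by many genes of an array, so it does not cover the spread described above. The genes, related lists and marker lists were chosen with earlier results of these data known, so no list was tested. Every member with a row was named, with all arrays given where it was called at 2-fold or where a result turned on it. Of other lists, the 2 genes of highest average were named, for the lists whose genes are described, and further genes where the text says they were named after their values were seen. Promoters were those of the RefSeq table.

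Alternatives were the methods' t-test, array weights, a block for the replicate number and a robust prior with intensity trend. Others were centring of each array on its median, another quantile normalization and dropping rows that averaged under the overall median. That median lies above the dim level. Also run were keeping 1 row per symbol, limma treat against 1 log2 unit and leaving out each array. Leaving out SP replicates 3 and 4 together and the differences between related genes were added after the data were seen.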

Additional observations from a re-analysis of the deposited data

Results flagged for a closer look

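In each gene and group of 4 arrays, the gap between the highest or lowest array and its neighbour was divided by the whole range (Dixon's ratio). Over 68 groups of 34 genes, 6 values stood apart at the 95% level. Chance marks about 1 group in 20 where groups are independent. These groups share arrays, and SP replicate 4 was the highest SP array for all 34 genes, so that rate is no yardstick here. In SP, replicate 4 stood above the others for Cnn1 (ratio 0.971, level 7.12), Igfbp5 (0.883, level 8.99), Fn1 (0.853, level 11.45) and Fbln5 (0.837, level 6.28). In PBS, replicate 1 stood above the others for Cnn1 (0.911, level 7.32) and Serpinf1 (0.874, level 8.02). Without SP replicate 4, Igfbp5 and Fbln5 were still called lower.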

How the results depend on the processing

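Of the 19 called genes, 12 kept call and direction under every alternative run on them apart from treat. These alternatives numbered 17 for 11 genes and 16 for Fbln2, which the filter at the overall median left out. The exceptions were Bgn, Eln, Mfap4, Sparc, Serpinf1, Pdgfrb and Cspg4, and the cause was not tested. Treat, which asks for more than 1 log2 unit, called 5 genes lower (Ogn, Fbln5, Gpc3, Inmt and Igfbp5), all at least 2-fold, and Vcan higher. The methods' t-test called 12 lower (19.8% of all rows). Leaving out 1 array gave 11 to 22 lower genes (11 without SP replicate 1), 1 to 2 higher (2 without SP replicate 3), 10 to 17 at least 2-fold lower and a median of -1.02 to -0.66. Higher genes numbered 3 with array weights, 5 after centring (57.7% of all rows) and 2 after another quantile normalization (19.6%). Shares over all rows were not worked out for treat, for array weights or for the 2-fold counts without 1 array. Those counts therefore have no background to be read against.

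Deviations of same-numbered PBS and SP arrays did not go together throughout (r = 0.016, 0.030, 0.35 and -0.27), so numbers were not taken as pairs. With the replicate number as a block, 15 genes were called lower and 1 higher (21.8% and 18.2% of all rows), the lost calls being Sparc, Serpinf1 and Cspg4. Of the PBS arrays, only replicate 3 correlated best with the SP array of its own number.

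Sign changes arose for uncalled genes with small differences. Lum was -0.012 without SP replicates 3 and 4. Fbn1 ranged from -0.38 (without SP replicate 4) to 0.64 (without SP replicate 3) when 1 array was left out, and was -0.052 without PBS replicate 4 and -0.037 without SP replicate 2. Loxl1 was 0.17 after centring and 0.22 after another quantile normalization, and without 1 array from -0.51 (SP replicate 4) to 0.20 (SP replicate 3), with 0.030 without PBS replicate 1. Tagln ran from -0.18 (without SP replicate 4) to 0.36 (without SP replicate 3), with -0.029 without PBS replicate 2 and -0.013 without SP replicate 2. Actg2 was 0.0062 with array weights, 0.26 after centring, 0.32 after another quantile normalization and without 1 array from -0.23 (SP replicate 4) to 0.23 (SP replicate 3), with 0.21 without PBS replicate 1, 0.082 without SP replicate 1 and 0.026 without SP replicates 3 and 4. The filter on rows averaging under the overall median left out 4 genes in all. Values near the olfactory receptor level, such as those of Lum, Fbln2 and Fbln5 in SP, may understate a difference.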
